A study of Rattus norvegicus with 6 samples.

Results

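Activator protein 1 (AP-1) is the family of paired transcription factors built from Fos, Jun and related proteins. Here 8 of its genes (Fos, Fosb, Fosl1, Fosl2, Jun, Junb, Jund and Atf3) were followed in rat ovary RNA. Every probe set that the platform annotation assigns to exactly 1 of these genes was taken, which gave 14 probe sets for 8 of the 14217 named genes on the array, out of 31042 probe sets tested. The series asks how ovarian gene expression differs with overfeeding. It has 6 Affymetrix arrays, each holding 1 pool of ovary RNA, 3 from overfed and 3 from lean females. Overfed females received 220 kcal and lean females 155 kcal per kg of metabolic body weight, both as a liquid infused by tube, called total enteral nutrition, over 28 days. All were then mated with lean males, and ovaries were taken 4.5 days after mating. The strain and the females' age are not given in the labels, nor is the number of animals in a pool, so p-values measure the spread between pools.

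Fos proteins do not pair with each other and bind DNA only as partners of a Jun protein or a related factor, whereas Jun proteins can also pair among themselves. Both carry a basic region that touches DNA and a leucine zipper that holds the pair together. Fos, Fosb, Jun, Junb and Atf3 are immediate-early genes, switched on within minutes by growth factors, hormones or cell stress through MAP kinases and then switched off again, while Jund is more steadily expressed. In the rat ovary, gonadotropins induce Fos and Jun genes in granulosa cells, and Fosl2 and Jund proteins persist as these cells become luteal cells. Atf3, a stress-induced factor of the same basic leucine zipper class, pairs with Jun proteins or with itself.

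The deposited values are relative log values, read here as log2. Each probe set was centred on its own median over the 6 pools, so that 0 is the middle of the pools and the level of a gene is not known. A difference between groups is overfed minus lean on this scale. Since levels are missing, the ovary label could not be checked by the presence of markers. Overfed pool 1 had the largest spread over probe sets (SD 0.29, against 0.14 to 0.24 in the other pools). For beta-actin, a sign of RNA quality, the centred 3′ value minus the centred 5′ value was 0.36 in lean pool 3. It lay between -0.062 and 0.061 in the other pools. Since each probe set is centred, this compares pools only, and the actual gap between 3′ and 5′ signal in any pool is unknown. Markers of oviduct and ciliated epithelium, 11 of 11 lower in overfed pools, averaged -0.77 to -0.28 in overfed and -0.074 to 0.79 in lean pools. Pool means were also separate between diets for macrophage markers (9 of 11 higher, 0.026 to 0.15 in overfed and -0.13 to -0.0055 in lean pools), neutrophil markers (5 of 5 higher, -0.0079 to 0.58 and -0.52 to -0.071) and B and plasma cell markers (4 of 5 lower, -0.27 to -0.015 and 0.021 to 0.21). Ovaries are mixtures of cells, and in bulk RNA fewer cells of a type and less RNA per cell cannot be told apart.

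No AP-1 gene differed between overfed and lean ovaries beyond the spread of the pools. Of the 14 probe sets, 6 had a higher and 8 a lower mean in overfed pools, and the differences ran from -0.25 to 0.14. The overfed and lean pools overlapped in 14 of 14, where over all probe sets the groups did not overlap in 12.7%. At an unadjusted limma p under 0.05, 0 of 14 were called, against 6.67% of all probe sets (3.31% higher and 3.36% lower). With limma's Benjamini-Hochberg adjustment over all probe sets, 0 of 14 passed 0.05, as did 0% of all probe sets, and the lowest adjusted p of an AP-1 probe set was 0.844. The median AP-1 difference was -0.011, beside 0.015 over all probe sets. In size, without regard to sign, the median was 0.045 for AP-1 and 0.091 for all probe sets. On 1 representative probe set per gene the median over the 8 genes was -0.0019, and without overfed pool 1 it was -0.14.

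**Figure D1:**
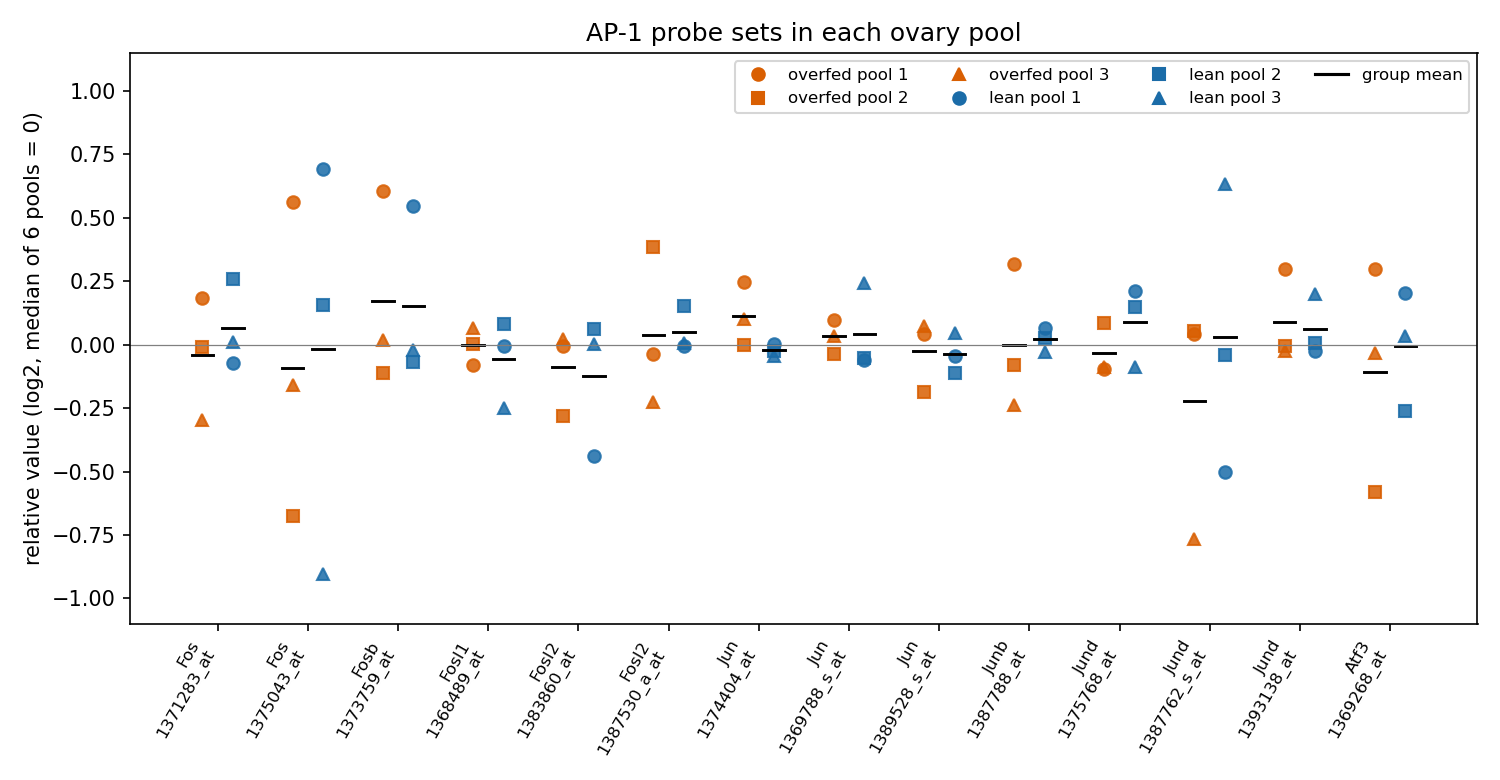
Relative value (log2, median of the 6 pools set to 0) of each of the 14 AP-1 probe sets in overfed pools (orange, left) and lean pools (blue, right), with 1 symbol per pool number and a black bar for the group mean. The groups overlap in all 14, and Fos 1375043_at has the widest range, 1.60.

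Among the Fos genes, the widest swing lay in Fos itself, the founding partner of the complex. Its probe set 1375043_at had relative values of 0.56, -0.68 and -0.16 in overfed pools 1 to 3, against 0.69, 0.16 and -0.90 in lean pools 1 to 3. Each group thus held a high and a low pool, and the range of 1.60 was wider than in 98.1% of all probe sets. The means were -0.090 ± 0.62 in overfed and -0.017 ± 0.81 in lean pools (SD, n = 3 each), a difference of -0.073 (SE 0.45, 0.951-fold, limma adjusted p = 0.986). The 95% interval, -1.14 to 0.99, leaves room for a change of 1.99-fold upward or 0.455-fold downward. Without lean pool 3 the difference was -0.52, and without lean pool 1 it was 0.28.

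The other Fos probe set, 1371283_at, followed a different course. It had 0.18, -0.011 and -0.30 in overfed pools 1 to 3, against -0.074, 0.26 and 0.011 in lean pools 1 to 3. Its difference was -0.11 (SE 0.15, 95% interval -0.46 to 0.24, limma adjusted p = 0.93), which turned to 0.021 without overfed pool 3. Over the 6 pools, the Pearson correlation between the 2 Fos probe sets was 0.22, so that they do not give the same account of Fos among pools.

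Fosb, a Fos relative that is likewise induced early, was high in a pool of each diet. It had 0.61, -0.11 and 0.020 in overfed pools 1 to 3, against 0.55, -0.067 and -0.020 in lean pools 1 to 3. Pool 1 stood above the other pools of its diet by 0.65 among overfed and 0.59 among lean pools, while the remaining pools lay close to 0. The group means of 0.17 ± 0.38 in overfed and 0.15 ± 0.34 in lean pools (SD, n = 3 each) differed by 0.018 (SE 0.23, 95% interval -0.53 to 0.57, limma adjusted p = 0.994). With quantile normalization this difference was -0.061.

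Fosl1 and Fosl2 encode Fra-1 and Fra-2, Fos relatives without the strong activation region of Fos. Fosl1 had -0.080, 0.0040 and 0.068 in overfed pools 1 to 3, against -0.0040, 0.082 and -0.25 in lean pools 1 to 3. Lean pool 3 was its lowest value. The difference of 0.054 (SE 0.11) had a 95% interval of -0.20 to 0.31, that is, 0.87-fold to 1.24-fold. For Fosl2, probe set 1383860_at had -0.0042, -0.28 and 0.023 in overfed pools, against -0.44, 0.063 and 0.0042 in lean pools. Its other probe set, 1387530_a_at, had -0.037, 0.38 and -0.23 in overfed pools, against -0.0061, 0.15 and 0.0061 in lean pools. The 2 Fosl2 probe sets disagreed on the order of the pools (Pearson r = -0.34 over 6 pools) but both had differences near 0, at 0.036 (SE 0.16) and -0.010 (SE 0.16), with limma adjusted p-values of 0.98 and 0.995.

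Among the Jun genes, the main partners of Fos proteins, Jun varied little between pools. Probe set 1374404_at had 0.25, -0.0027 and 0.10 in overfed pools 1 to 3, against 0.0027, -0.023 and -0.044 in lean pools 1 to 3. Overfed pools 1 and 3 lay above every lean pool, and overfed pool 2 fell just below lean pool 1. This gave the largest upward difference among the 14 probe sets, 0.14 (SE 0.091, 1.10-fold, 95% interval -0.077 to 0.35), with a limma adjusted p of 0.844. Permuting the 6 pools exactly (two-sided) gave p = 0.2, and the smallest p this design allows is 0.1. It stayed positive, between 0.070 and 0.20, with any 1 pool left out.

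The other Jun probe sets, both of the type whose probes can match several transcripts, did not share that difference. Probe set 1369788_s_at had 0.097, -0.036 and 0.036 in overfed pools, against -0.062, -0.053 and 0.25 in lean pools. Probe set 1389528_s_at had 0.043, -0.19 and 0.073 in overfed pools, against -0.043, -0.11 and 0.047 in lean pools. Their differences were -0.011 (SE 0.11) and 0.012 (SE 0.10), and both changed sign with quantile normalization (0.0050 and -0.0045). The 95% intervals, -0.27 to 0.24 and -0.23 to 0.25, lie between 0.831-fold and 1.19-fold.

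Junb, an early-induced Jun relative, spread far more widely among overfed than among lean pools. It had 0.32, -0.080 and -0.24 in overfed pools 1 to 3, against 0.067, 0.028 and -0.028 in lean pools 1 to 3. The lean values lay inside the range of the overfed values, with an SD of 0.29 in overfed and 0.048 in lean pools, a difference in spread that was not tested. The means differed by -0.022 (SE 0.15, 95% interval -0.37 to 0.32, limma adjusted p = 0.987). Overfed pool 1 set the upper end, and without it the difference was -0.18 (limma adjusted p = 0.796).

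Jund, the steadily expressed Jun relative, was measured by 3 probe sets that did not run together. Probe set 1375768_at had -0.097, 0.087 and -0.087 in overfed pools 1 to 3, against 0.21, 0.15 and -0.089 in lean pools 1 to 3. Lean pools 1 and 2 lay above every overfed pool, and lean pool 3 lay among them. Its difference of -0.12 (SE 0.11, 0.919-fold, limma adjusted p = 0.884) stayed negative, from -0.21 to -0.062, with any 1 pool left out. Probe set 1387762_s_at, of the type whose probes can match several transcripts, swung from -0.76 in overfed pool 3 to 0.63 in lean pool 3. It had 0.042 and 0.053 in overfed pools 1 and 2, against -0.50 and -0.042 in lean pools 1 and 2. Pool 3 thus held both its lowest and its highest value. It gave the lowest difference of the family, -0.25 (SE 0.33, 95% interval -1.03 to 0.52, exact permutation p = 0.6), which was 0.049 without lean pool 3 and 0.017 without overfed pool 3. Probe set 1393138_at had 0.30, -0.0050 and -0.026 in overfed pools, against -0.025, 0.0050 and 0.20 in lean pools, and a difference of 0.029 (SE 0.12).

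Atf3, the stress-induced relative, had 0.30, -0.58 and -0.035 in overfed pools 1 to 3, against 0.21, -0.26 and 0.035 in lean pools 1 to 3. In both diets pool 1 was the highest and pool 2 the lowest. The means of -0.11 ± 0.44 in overfed and -0.0068 ± 0.24 in lean pools (SD, n = 3 each) differed by -0.099 (SE 0.23, 0.934-fold, 95% interval -0.64 to 0.44), with a limma adjusted p of 0.963. Without overfed pool 1 the difference was -0.30, and without overfed pool 2 it was 0.14.

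The intervals say how large a difference these 6 pools could have held. Read as base 2, in 11 of the 14 probe sets the 95% interval lay within 1.5-fold in either direction, so that a larger change is outside the interval for at least 1 probe set of Fos, Fosb, Fosl1, Fosl2, Jun, Junb and Jund. The exceptions were Fos 1375043_at (0.455-fold to 1.99-fold), Jund 1387762_s_at (0.490-fold to 1.44-fold) and Atf3, whose interval reached 0.642-fold. For Fos and Jund, the probe sets of the same gene thus did not give the same limit. Signal over background is unknown, so it could not be checked whether the probe sets with narrow intervals detect their gene. Over the 14 probe sets, the exact permutation p ran from 0.2 to 1. All folds assume base 2. If the deposited logarithms were natural, which the values do not settle, each fold would lie further from 1, and 8 of the 14 intervals would lie within 1.5-fold, none of them of Fos, Fosb or Atf3.

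**Figure D2:**
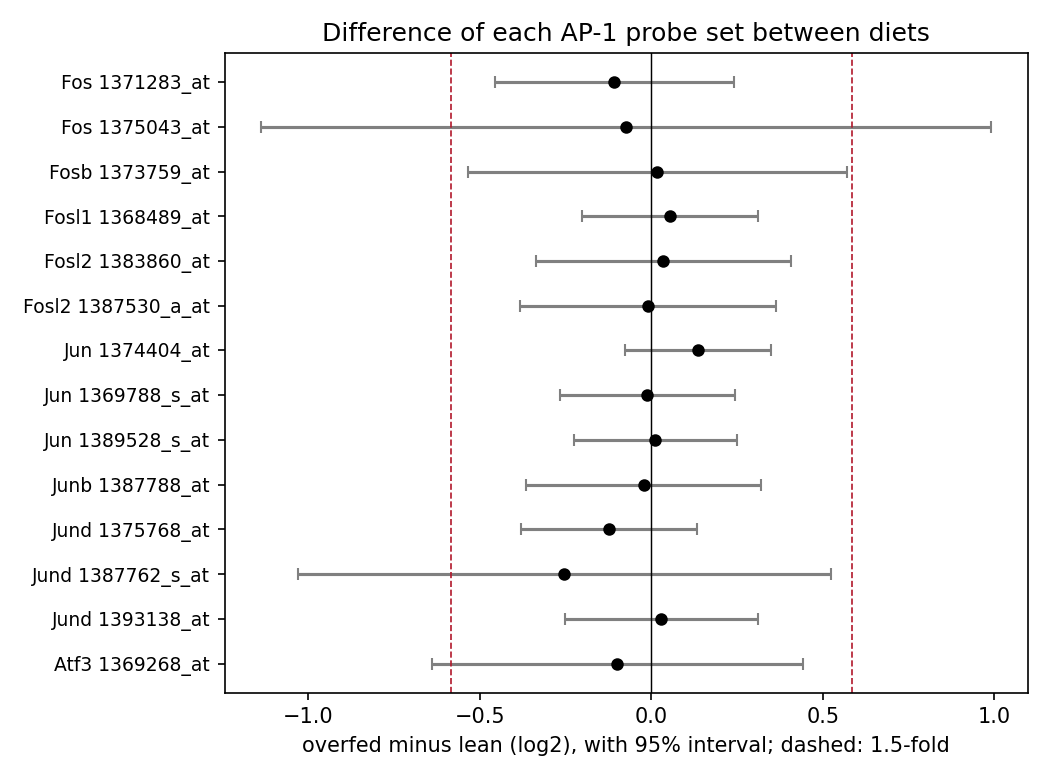
Difference between overfed and lean pools (log2, overfed minus lean, horizontal axis) for each AP-1 probe set, with its 95% interval from limma as a bar and 1.5-fold as dashed lines. All 14 intervals include 0, and 3 of them (Fos 1375043_at, Jund 1387762_s_at and Atf3) cross a dashed line.

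Several of these probe sets varied widely between pools of the same diet. The within-diet SD of Fos 1375043_at was 0.72, higher than in 99.1% of all probe sets, and those of Jund 1387762_s_at (0.52), Fosb (0.36) and Atf3 (0.35) exceeded 97.6%, 93.7% and 93.3%. Other probe sets of the same genes varied less, with Fos 1371283_at above 77.1%, Jund 1375768_at above 47.4% and Jund 1393138_at above 58.2% of all probe sets. Jun 1374404_at, at 0.090, exceeded 22.7%. Pool 1 was the highest of its diet in both diets for 5 of the 14 probe sets, namely Fos 1375043_at, Fosb, Jun 1374404_at, Junb and Atf3, where this held for 8.63% of all probe sets. On representatives it held for 4 of the 8 genes, beside 7.8% of all genes. Among lean pools, the lead of pool 1 over the mean of the others was small for Jun 1374404_at (0.036) and Junb (0.067). It was 0.32 for Atf3, 0.59 for Fosb and 1.07 for Fos 1375043_at. The other probe sets of Fos and Jun did not share the pattern. The pattern was noticed in these values and has no test of its own. The labels do not say that pools of the same number shared animals, a day or a batch. Beside it, the mean of 3 red blood cell genes was also highest in pool 1 of both diets (0.069, against -0.091 and -0.071 in overfed pools 2 and 3, and 0.35, against -0.079 and 0.043 in lean pools 2 and 3). It was carried by Hbb and Alas2, while the third gene, Slc4a1, was lowest in pool 1 of both diets (-0.084 in overfed and -0.021 in lean). The means of granulosa (-0.17 in overfed and -0.21 in lean), theca (-0.068 and -0.21) and T and NK cell markers (-0.042 and -0.17) were lowest in pool 1 of both diets. In overfed pool 1 the theca mean was carried by Lhcgr (-0.97), which is also in the corpus luteum list. There Insl3 was at -0.079, while Cyp17a1 (0.54) and Nr2f2 (0.23) went the other way. Over the 6 pools, the marker means with the largest r to Fosb in size were red blood cell (0.78), T and NK cell (-0.75), smooth muscle (0.69) and corpus luteum (-0.61). Without the 2 pools farthest from the median of Fosb, these were 0.41, -0.56, 0.39 and -0.77. The mean of 8 smooth muscle genes was instead highest of its diet in overfed pool 1 (0.92) and lean pool 3 (0.63). In the same pools, adipocyte markers were highest (0.21 and 0.61) and corpus luteum markers lowest (-0.48 and -0.35). Over the 6 pools, Atf3 had r = 0.71 with the smooth muscle, 0.76 with the adipocyte and -0.71 with the corpus luteum mean. For Fosl1 these were -0.78, -0.81 and 0.79. Without the 2 farthest pools, they were 0.57, 0.89 and -0.56 for Atf3, and -0.83, -0.85 and 0.76 for Fosl1. Other members had larger r in size. Jund 1393138_at had -0.88 with the corpus luteum mean, but 0.85 without its 2 farthest pools. Fosl2 1383860_at had 0.93 with the oocyte mean, but 0.082 without its 2 farthest pools. The part of any of these cell types in the AP-1 values was not tested.

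Over the 6 pools, Fosb varied with Fos 1375043_at (Pearson r = 0.81, Spearman rho = 0.66) and with Atf3 (r = 0.82, rho = 0.94). Without the 2 pools farthest from the median of the first-named partner, Fos or Fosb, these correlations were 0.79 and 0.91. Fosb with Junb gave r = 0.74, but -0.58 once 2 pools were left out, so that this relation rests on those pools. Among the 83 pairs of probe sets of different AP-1 genes, 6 had r above 0.7 and 7 had r below -0.7, with a median of 0.064. The points are whole arrays that share diet, RNA quality and cell makeup within a pool, and these values are descriptions of 6 pools.

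Some other immediate-early genes varied with Fos 1375043_at among the pools, and others against it. Of 37 measured, 6 had a Pearson r above 0.7 with it (16.2%), beside 438 of 14209 other genes (3.08%). The median r of the list was 0.23, 12 of the 37 had a negative r, and the lowest was that of Arc (-0.56). The 6 were Ier2 (r = 0.96), the orphan nuclear receptor Nr4a3 (0.90), the zinc finger factors Egr1 (0.83) and Klf10 (0.79), the clock gene Per1 (0.75) and the differentiation inhibitor Id1 (0.70). Ier2, an early response gene, had 0.30, -0.15 and -0.13 in overfed pools 1 to 3, against 0.29, 0.13 and -0.46 in lean pools 1 to 3. Nr4a3 had 0.19, -0.64 and -0.013 in overfed pools, against 0.013, 0.088 and -0.61 in lean pools. Both were low in lean pool 3, which also had the raised beta-actin 3′ minus 5′ value and whose part in this was not tested. With lean pools 1 and 3, the farthest from the median of Fos, left out, r was 0.93 for Ier2, 0.93 for Nr4a3 and 0.53 for Egr1. This Fos probe set was singled out after its values were seen.

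**Figure D3:**
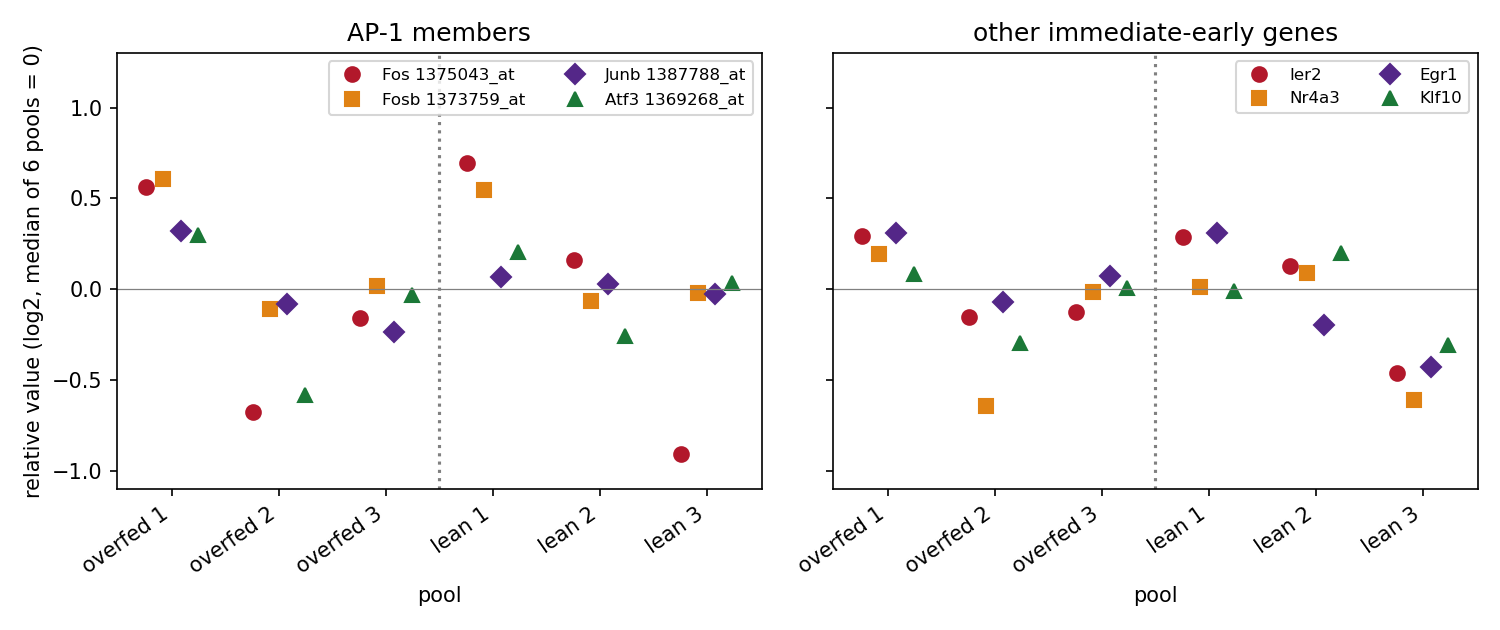
Relative value (log2, median of the 6 pools set to 0) in each overfed pool (left of the dotted line) and lean pool (right of it) for 4 AP-1 probe sets (left panel) and for 4 other immediate-early genes that vary with Fos 1375043_at (right panel). Fos stands at 0.56 in overfed pool 1 and 0.69 in lean pool 1, and at -0.68 in overfed pool 2 and -0.90 in lean pool 3.

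By likeness over the 6 pools, the named genes closest to the representative Fos probe set 1371283_at were Gfus, Il1rl2, Slc2a3, Kctd5 and Spmip4, with Pearson r from 0.98 to 0.997. Those closest to Atf3, the gene whose representative probe set had the widest range (0.88), were Slc35c2, Glud1, Cdc42ep4, Mrln and Tmsb4x, with r from 0.97 to 0.99. Over these 6 pools 69 genes (0.486% of 14209) exceeded 0.9 with Fos 1371283_at and 40 (0.282%) with Atf3. The named genes were picked as the highest of so many over only 6 points, and their r was not tested. No immediate-early gene was among these 10, whereas Ier2 was among the 5 closest to Fos 1375043_at.

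The genes around AP-1 were described by 5 lists, on 1 representative probe set per gene. Over all 14217 genes, 7.14% had an unadjusted limma p under 0.05, 2.67% higher and 4.47% lower. Overfed and lean pools were separate in 13.1%, and 0 genes passed the adjusted threshold. Of 20 other basic leucine zipper factors that can pair with Fos or Jun or compete for their sites, 12 were higher and 8 lower, 0 reached an unadjusted p under 0.05, and in 3 every overfed pool lay on the same side of every lean pool. The lowest p-values were those of the stress factor Ddit3 (0.22, SE 0.096), Atf1 (0.12, SE 0.073) and Batf3 (-0.20, SE 0.15), with limma adjusted p-values of 0.759, 0.833 and 0.853. Of 17 kinases that feed AP-1, 10 were higher and 7 lower and 0 had an unadjusted p under 0.05. They were led by Map3k1 (0.26, SE 0.11), an upstream kinase of the Jun kinases, by Mapk8 (0.26, SE 0.12), the Jun kinase JNK1, and by Map3k8 (0.22, SE 0.10), with limma adjusted p-values of 0.751, 0.77 and 0.78. Mapk8 had 0.41, 0.0015 and 0.15 in overfed pools, against -0.10, -0.12 and -0.0015 in lean pools, which did not overlap. Pools were separate in 3 of the 17 kinases (17.6%, beside 13.1% of all genes). Of 20 regulators of Fos and Jun transcription and turnover, 11 were higher and 9 lower, and 0 had an unadjusted p under 0.05. Trib2 (0.39, SE 0.21), the transcription factor Mef2d (-0.14, SE 0.077) and Fbxw7 (0.13, SE 0.082), the ubiquitin ligase subunit that marks Jun for destruction, had limma adjusted p-values of 0.827, 0.829 and 0.836.

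The 37 other immediate-early genes showed 20 higher and 17 lower, with 3 higher and 1 lower at an unadjusted p under 0.05 (10.8%, beside 7.14% of all genes). Klf6 (0.31, SE 0.093), the phosphatase Dusp2 (0.37, SE 0.13) and Egr2 (0.59, SE 0.21) had the lowest p-values, with limma adjusted p-values of 0.647, 0.702 and 0.708. Of 37 genes known as AP-1 targets in various cells, 17 were higher and 20 lower, and 2 higher and 4 lower had an unadjusted p under 0.05 (16.2%). The monocyte chemokine Ccl2 was at 0.80 (SE 0.17), the tissue plasminogen activator Plat at -0.64 (SE 0.15) and the angiogenic factor Vegfa at -0.41 (SE 0.14), with limma adjusted p-values of 0.623, 0.623 and 0.702. Plat had -0.32, -0.11 and -0.36 in overfed pools, against 0.64, 0.11 and 0.37 in lean pools, without overlap. Pools were separate in 5 of the 37 targets (13.5%, beside 13.1% of all genes). Macrophage marker means were higher in every overfed pool than in any lean pool, as given above, and their part in Ccl2 was not tested. Differences in this list ran from -0.72 to 0.92 with a median of -0.0091, beside -0.0019 for the 8 AP-1 genes and 0.0071 for all genes. The lower end was the keratin Krt18 (SE 0.30), followed by Plat and then the keratin Krt8 (-0.62, SE 0.27). The limma adjusted p-values were 0.748 for Krt18 and 0.762 for Krt8. Oviduct and ciliated epithelium markers were also lower in overfed pools, as given above, and their part in the keratins was not tested. The upper end, the collagenase Mmp13, rests on overfed pool 3, with 0.27, -0.090 and 2.57 in overfed pools, against -0.022, 0.011 and -0.011 in lean pools (limma adjusted p = 0.847). Mmp13 and both keratins were named after their values were seen. Many of these targets have other regulators, and the list is a description.

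**Figure D4:**
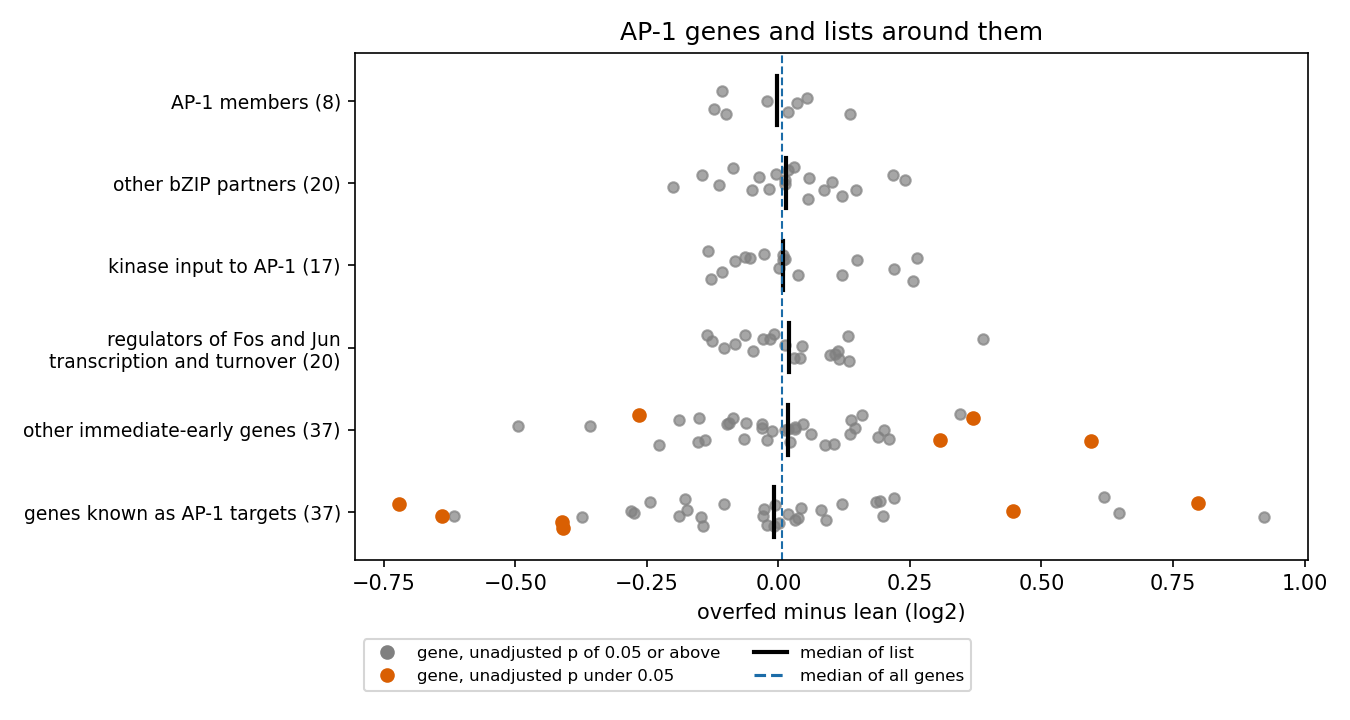
Difference between overfed and lean pools (log2, overfed minus lean, horizontal axis) of each gene in the AP-1 family and in 5 lists around it, with the number of measured genes in parentheses, orange for an unadjusted limma p under 0.05, a black bar for the list's median and a dashed line for the median of all genes. The 8 AP-1 genes lie between -0.12 and 0.14 with none in orange, while the AP-1 target genes run from -0.72 to 0.92.

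Promoter sequences from RefSeq (build GRCr8, 250 bases before to 50 after the annotated start) were held for 5 of the 8 genes, Fosb, Fosl1, Fosl2, Junb and Jund. They were searched on both strands for the AP-1 site TGANTCA, its variant TGCGTCA, the cAMP response element TGACGTCA, the Egr site GCGTGGGCG, the CArG box of serum response factor, TATAAA and CCAAT. The table places the start of Fosb 322 bases inside the gene, so that its window lies within the gene and not upstream of it. In the 5 windows TGANTCA and the CArG box had no match, where 7.33% and 1.64% of all 33469 promoters of this length held them. Jund held TGACGTCA, found in 1.83% of promoters, at 221 bases before the start, and GCGTGGGCG, found in 0.544%, at 76 bases before the start. Fosl1 held TGCGTCA, found in 1.90% of promoters, at 150 and at 86 bases before the start. The motifs do not overlap one another. TATAAA (14.2% of promoters) was found in Fosb and Junb, and CCAAT (37.5%) in Junb and Jund. The promoters of Jund and Fosl1 are shown because they hold the AP-1 variant, cAMP response or Egr motifs, Jund from chr16:18769722-18770021 (minus strand) and Fosl1 from chr1:212183635-212183934 (plus strand), with the matches to these motifs in capitals.
Jund: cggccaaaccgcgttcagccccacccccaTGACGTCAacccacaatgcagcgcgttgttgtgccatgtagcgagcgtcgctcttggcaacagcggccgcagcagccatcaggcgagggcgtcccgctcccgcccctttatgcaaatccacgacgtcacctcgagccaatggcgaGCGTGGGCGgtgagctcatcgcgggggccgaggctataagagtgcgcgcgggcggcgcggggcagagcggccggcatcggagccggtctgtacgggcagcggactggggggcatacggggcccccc
Fosl1: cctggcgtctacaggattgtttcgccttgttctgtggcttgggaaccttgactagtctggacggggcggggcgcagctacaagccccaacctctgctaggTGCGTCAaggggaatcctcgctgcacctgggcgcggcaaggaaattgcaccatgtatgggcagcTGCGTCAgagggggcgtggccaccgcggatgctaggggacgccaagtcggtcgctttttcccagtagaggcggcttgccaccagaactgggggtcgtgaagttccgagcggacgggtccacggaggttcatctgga
A match of letters is a description and says nothing of binding.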

How the data were processed

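Ovary RNA from 3 overfed and 3 lean pools was hybridized to 6 arrays, labelled with biotin per the labels' protocols. Deposited values are logarithms, read as log2. They were made with GCOS per the submitters' processing notes. For the probe set summary, the normalization and the base of the logarithm, nothing is stated in the labels. The median of the 6 deposited values was 0 in each of 31099 probe sets, so levels and signal over background are unknown. After 57 control probe sets were left out, 31042 were tested. Genes were named from the platform annotation, which gave 1 gene for 20826 probe sets, several for 436 and none here for 9780, and symbols were updated through a RefSeq gene table that held 20758 of those identifiers.

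Overfed and lean were compared in limma 3.58.1 (R 4.3.3, lmFit and eBayes, no covariate, two-sided, Benjamini-Hochberg over all probe sets, threshold 0.05), tested on simulated data. A gene's representative was a unique probe set before a shared one, then one with a RefSeq accession, then the lowest identifier. Named were all 8 genes with every probe set, the 3 genes of each pathway list with the lowest p, and the 5 genes closest in Pearson r to Fos and to the gene of widest range. Any other gene was named with its values in view. The family and the lists were chosen with earlier results of these data known. Alternatives were quantile normalization, array medians, array weights, a robust prior (a trend has no meaning in centred values), a block for pool number, each pool left out in turn, a filter on SD in place of one on level, the mean of a gene's probe sets and natural logarithms. Figures used matplotlib 3.10.9.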

Additional observations from a re-analysis of the deposited data

How the results depend on the processing

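No AP-1 probe set passed the limma adjusted threshold in any of the 12 fits tried beside the reported one, nor an unadjusted p of 0.05 (the lowest was 0.0759, for Jund 1375768_at without lean pool 3). One of these fits, filtered on SD, left out 6 of the AP-1 probe sets. Jun 1374404_at (0.070 to 0.20 with any 1 pool left out) and Jund 1375768_at (-0.21 to -0.062) kept their sign in every fit that held them. The other 12 changed it in some fit. With 1 pool left out, Fos 1371283_at ran from -0.22 to 0.021, Fos 1375043_at from -0.52 to 0.28, Fosb from -0.20 to 0.21, Fosl1 from -0.042 to 0.12, Fosl2 1383860_at from -0.12 to 0.13, Fosl2 1387530_a_at from -0.18 to 0.12, Jun 1369788_s_at from -0.064 to 0.090, Jun 1389528_s_at from -0.036 to 0.094, Junb from -0.18 to 0.098, Jund 1387762_s_at from -0.52 to 0.049, Jund 1393138_at from -0.076 to 0.10 and Atf3 from -0.30 to 0.14. Under quantile normalization and array weights, Fosb turned to -0.061 and -0.15, Fosl2 1387530_a_at to 0.054 and 0.066, Jun 1369788_s_at to 0.0050 and 0.012, and Jun 1389528_s_at to -0.0045 and -0.014. The cause was not tested.

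With 1 pool left out, list medians ran from -0.14 to 0.092 for the AP-1 genes, -0.012 to 0.038 for other basic leucine zipper factors, -0.019 to 0.021 for kinases, -0.0090 to 0.068 for regulators, -0.038 to 0.082 for other immediate-early genes and -0.068 to 0.046 for AP-1 targets. The zipper factors' median was also -0.0073 with quantile normalization and -0.0057 with array weights. Leaving out the probe sets with an SD below the median gave 62 calls past the adjusted threshold, against 0, none of them AP-1 (8 AP-1 probe sets were kept), with 275 higher and 669 lower at an unadjusted p under 0.05, among fewer probe sets tested. With 1 pool left out and no such filter, the counts at an unadjusted p under 0.05 over all probe sets, 1027 higher and 1043 lower in the reported fit, were 755 to 1095 higher and 758 to 1251 lower.

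With the pool number as a replicate block, Fosb kept its difference of 0.018 with an SE of 0.088 in place of 0.23, and Atf3 its -0.099 with 0.11 in place of 0.23 (limma adjusted p = 0.984 and 0.925). Fosb and Atf3 had already been seen to be highest in pool 1 of both diets. In some other AP-1 probe sets the SE rose with the block, as in Jund 1387762_s_at (0.38 in place of 0.33). The block changed no AP-1 call. Deviations from the diet means correlated over all probe sets at 0.097, 0.17 and -0.28 between pools numbered 1, 2 and 3, so the numbers were not taken as pairs. The number of pools limits the precision, and signal over background is unknown.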
